A study of Mus musculus with 10 samples.

Results

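Hbegf encodes heparin-binding EGF-like growth factor, and it is described here with 8 further genes of the epidermal growth factor (EGF) receptor system in cultured mouse lymphatic endothelial cells. The 9 genes are the ligands Hbegf, Areg, Ereg and Tgfa, the receptors Egfr, Erbb2 and Erbb3, the sheddase Adam17 and the receptor inhibitor Errfi1, out of 16251 genes in the deposited count table. They were chosen by the rise of Hbegf after Vegfr2 siRNA, which was known from these same libraries, together with its family and pathway. Their differences between the groups are therefore given as a description, with no test of their own. Of the 9 genes, 7 passed the filter on low counts and Areg and Ereg did not.

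The libraries came from primary lymphatic endothelial cells, the lining of lymphatic vessels, in 2 groups of 5. One group received 50 nM siRNA against Vegfr2, the VEGF receptor encoded by Kdr. The other carries the label control, and its samples bear the same knockdown treatment tag. Whether they received another siRNA, and whether replicates were separate cultures, is not given in the sources used here, so p-values reflect the spread among these libraries alone, and that spread may be technical. All RNA was taken at 48 h.

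EGF family ligands are made as membrane-anchored precursors. Metalloproteases such as ADAM17 cut them from the cell surface, and the released ligand binds ErbB receptors on the same or neighbouring cells. HB-EGF, amphiregulin, epiregulin and TGF-alpha bind the EGF receptor, ERBB2 binds no known ligand and pairs with the other receptors, and ERBB3 has little kinase activity of its own and binds neuregulins. Ligand binding starts Ras to ERK signalling, which induces the receptor inhibitor ERRFI1 (also called MIG6), and Hbegf is itself a classical early response gene to ERK signalling.

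The library totals ran from 17946483 to 18239260 estimated counts. Kdr stood at 14.0% of its control level in the siRNA libraries (exact permutation test of log2 CPM, two-sided, p = 0.00794, the smallest that 5 against 5 allows). All 10 lymphatic endothelial marker genes examined passed the filter. Their summed level was 12723 to 13286 CPM in control and 9467 to 10041 CPM in siRNA libraries. At an edgeR adjusted p under 0.05, 8 were called lower and 1 higher, beside 35.2% lower and 36.1% higher of all 12161 genes tested. CPM stands for counts relative to the TMM-scaled library size. Of the epithelial markers, 7 of 11 were analysed and their sum was 2.28 to 3.28 CPM in control and 9.80 to 10.5 CPM in siRNA libraries. Krt18, which made up most of that rise, went from 1.67 ± 0.469 to 8.22 ± 0.383 CPM (SD, n = 5), whereas Epcam, Cdh1, Krt8, Krt19 and Cldn4 had at most 3 counts in any library. Fibroblast and mural markers summed to 10.4 to 15.0 CPM in control and 8.23 to 10.98 CPM in siRNA libraries, with Lum, Rgs5 and Des at no more than 1 count. Pdgfra of this list went the other way, from 5 reads in all control to 45 in all siRNA libraries (0.0558 ± 0.0558 and 0.494 ± 0.0870 CPM), with no overlap, and was under the filter. Leukocyte markers, of which 6 of 10 were analysed, summed to 42.0 to 49.8 and 30.0 to 40.4 CPM. The part of other cell types in the changes below was not tested, and in bulk RNA fewer cells of a type and less RNA per cell cannot be told apart.

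Hbegf went from a low to a moderate transcript in the siRNA cells. It is Entrez gene 15200, on the minus strand of chromosome 18 from 36504927 to 36515805 (GRCm38), and no other annotated gene shares its exon bases. The control libraries, in label order, held 72, 59, 83, 73 and 76 Hbegf reads, or 4.03, 3.28, 4.61, 4.03 and 4.26 CPM. In the siRNA libraries 516, 569, 545, 572 and 632 reads gave 28.3, 31.2, 29.9, 31.4 and 34.8 CPM. The lowest siRNA library was thus far above the highest control library. The difference was 7.68-fold (log2 fold change 2.94, SE 0.074), which placed Hbegf at rank 10 of 12161 genes tested when ordered from the largest rise. Control replicate 2 was the lowest and siRNA replicate 5 the highest for this gene, and the log2 fold change was 2.88 without the former and 2.90 without the latter.

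Tgfa, which encodes transforming growth factor alpha, was the other EGF receptor ligand with appreciable expression. It lies on chromosome 6 from 86195223 to 86275719 (Entrez gene 21802). In the control libraries it was at 8.78, 8.34, 8.22, 8.23 and 8.13 CPM, a relative spread smaller than that of the other 3 ligands. The siRNA libraries held 15.1, 16.9, 16.7, 18.4 and 18.7 CPM. The groups did not overlap, and the difference was 2.06-fold (log2 fold change 1.04, SE 0.069). In read counts the control cells held 749 Tgfa and 363 Hbegf reads over 5 libraries, and the siRNA cells 1563 and 2834. Reads also depend on length, and the longest annotated transcript has 4527 bases for Tgfa and 2375 for Hbegf. Per kilobase of it, the control ranges of Tgfa and Hbegf overlapped (means 1.84 and 1.70 CPM). In siRNA libraries Hbegf was above Tgfa (13.1 and 3.79).

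Areg and Ereg, the genes of amphiregulin and epiregulin, were barely detected in either group. Areg (Entrez gene 11839) had 2, 2, 4, 1 and 0 reads in the control libraries and 4, 6, 9, 9 and 6 in the siRNA libraries. The 0 in control replicate 5 allows up to 3 reads, by counting error alone. The lowest siRNA library equalled the highest control library in reads, so the groups touched. Ereg (Entrez gene 13874) had 7, 7, 10, 6 and 4 reads against 15, 7, 7, 17 and 13, with 3 of 5 siRNA libraries above every control library. Neither gene was tested, and no fold is given at this depth.

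These low-level ligand genes are neighbours. Epgn (91027464 to 91035215), Ereg (91074622 to 91093646), Areg (91139599 to 91148432) and Btc (91357261 to 91402994) lie in this order on chromosome 5, whereas Hbegf and Tgfa lie elsewhere. Epigen (Epgn) had 4 reads in all control and 7 in all siRNA libraries, and betacellulin (Btc) had 13 and 36. All 4 genes of the cluster thus stayed under the filter in cells in which Hbegf and Tgfa did not.

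**Figure D1:**
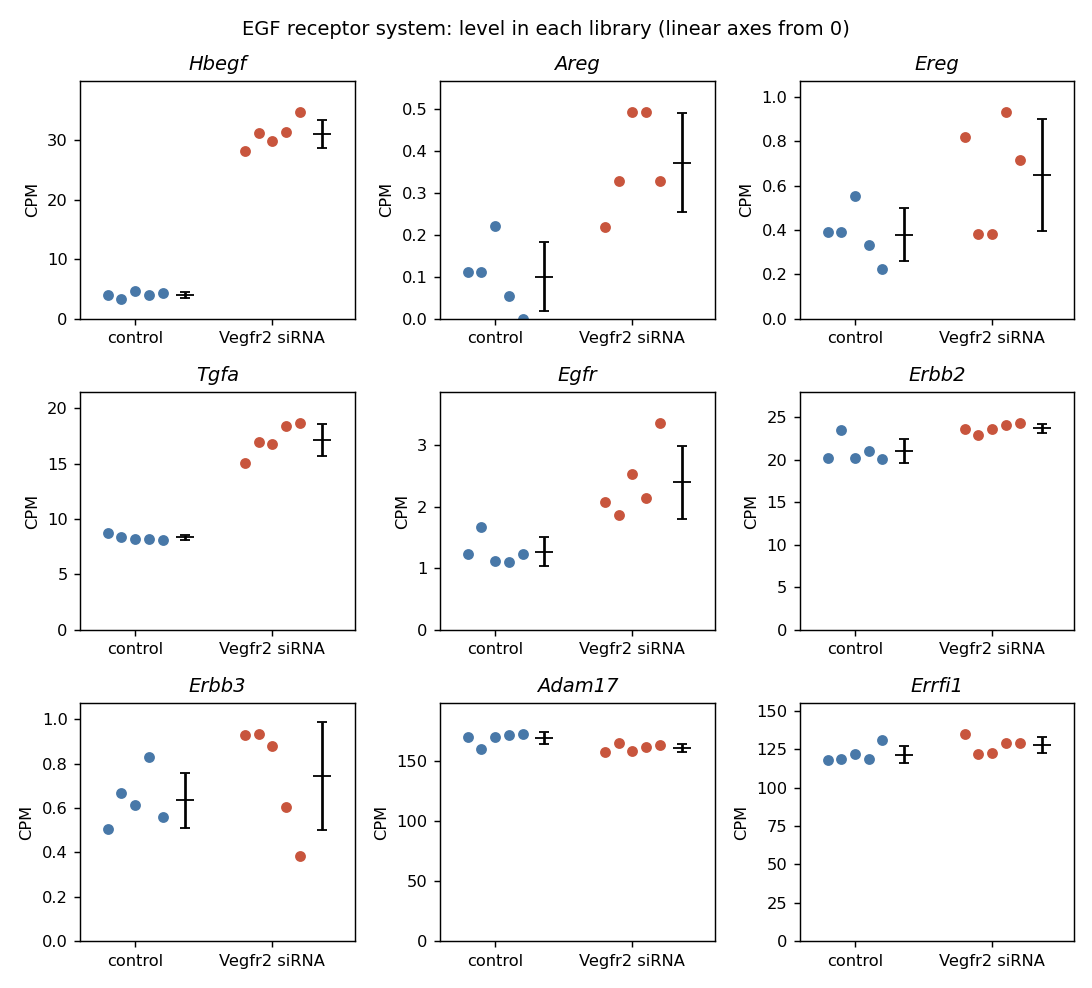
Level of each of the 9 genes in CPM (vertical axes, linear from 0) in the 5 control (blue) and 5 Vegfr2 siRNA (red) libraries, with the mean and SD beside each group. The groups are apart for Hbegf, Tgfa and Egfr and overlap or touch for the other 6 genes.

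Egfr, the receptor gene for all of these ligands, was near the detection limit yet higher after the siRNA. The gene (Entrez gene 13649, chromosome 11, 16752203 to 16918158) had 22, 30, 20, 20 and 22 reads in control and 38, 34, 46, 39 and 61 reads in siRNA libraries. In CPM these were 1.23, 1.67, 1.11, 1.104 and 1.23 against 2.08, 1.86, 2.52, 2.14 and 3.36. The ranges were separate by a small margin, set by control replicate 2 and siRNA replicate 2. The log2 fold change was 0.91 (SE 0.178, a 1.88-fold rise), and it was 1.03 without control replicate 2 and 0.76 without siRNA replicate 5, the highest library.

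Erbb2 was by far the most abundant receptor transcript and moved little. This gene (Entrez gene 13866, chromosome 11, 98412470 to 98437716) was at 20.1, 23.4, 20.2, 21.04 and 20.1 CPM in the control cells and at 23.6, 22.9, 23.6, 24.1 and 24.3 CPM in siRNA libraries. Control replicate 2 lay inside the siRNA range and the other 4 below it. Erbb2 rose by 0.18 on the log2 scale (SE 0.051), or 0.22 without control replicate 2. Erbb3 (Entrez gene 13867, chromosome 10) had 9, 12, 11, 15 and 10 reads in control and 17, 17, 16, 11 and 7 in siRNA libraries. Its log2 fold change of 0.23 did not pass the threshold, with a 95% interval from −0.31 to 0.77 that leaves both a fall and a rise possible. Erbb4, the remaining receptor gene of the family, was not analysed here.

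Adam17 and Errfi1 were abundant and close to level between the groups. Adam17 encodes the main sheddase of HB-EGF, TGF-alpha and amphiregulin (Entrez gene 11491, chromosome 12, 21323509 to 21373632). The control libraries held 170.1, 160.4, 170.4, 171.8 and 172.4 CPM of it, and the siRNA libraries 157, 165, 158, 162 and 164 CPM. The second control library was below 3 of the siRNA libraries, and the remaining control libraries were above all of them. It fell by 0.07 on the log2 scale (SE 0.026), a call that was lost without control replicate 4 (−0.0600), siRNA replicate 1 (−0.0595) or siRNA replicate 3 (−0.0612).

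Errfi1 (Entrez gene 74155, chromosome 4, 150853919 to 150868892) had control values of 118, 119, 122, 118 and 131 CPM and siRNA values of 135, 122, 122, 129 and 129 CPM. Control replicate 5 lay above 4 of the 5 siRNA libraries, so the ranges overlapped widely. The log2 fold change was 0.069 (SE 0.031), a 1.05-fold difference that passed the threshold by little and missed it in 13 of 17 alternative analyses, with RLE (0.0666) and upper-quartile (0.0529) scaling among them. Its value without a library was lowest without siRNA replicate 1 (0.0489). Errfi1 thus differed by about the spread between its libraries, and receptor signalling was not tested.

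Counted by the edgeR threshold (Benjamini-Hochberg adjusted p under 0.05), 5 of the 7 tested genes were higher, 1 was lower and 1 did not pass. Over all 12161 genes tested the same threshold called 71.3%, of which 36.1% of all genes were higher and 35.2% lower, so a call by itself says little in this comparison. The groups did not overlap for 3 of the 7, against 57.0% of all genes tested. The median log2 fold change was 0.23 over the 7 genes and −0.0019 over all genes, and the median size of a called change was 1.23-fold. Nothing is read from these counts, since the same contrast chose the genes.

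To compare the genes with each other, levels were divided by the length of the longest annotated transcript, in CPM per kilobase. In control cells Errfi1 (40.0 ± 1.77) and Adam17 (37.8 ± 1.1) led (SD, n = 5), above 83.5% and 82.5% of genes with a length. Erbb2 followed at 4.18 ± 0.284, above 25.3% of genes. Tgfa (1.84 ± 0.057) and Hbegf (1.70 ± 0.206) came next, and their library ranges overlapped. Egfr (0.124 ± 0.023), Erbb3 (0.105 ± 0.021), Ereg (0.092 ± 0.029) and Areg (0.082 ± 0.068) formed a lowest tier in which each neighbour overlapped the next. Egfr stood above 0.639% of tested genes, so the canonical receptor of HB-EGF was among the scarcest transcripts that passed the filter.

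In siRNA cells Errfi1 (41.9 ± 1.74) and Adam17 (36.1 ± 0.746) kept the top places in CPM per kilobase and Hbegf moved from the fifth to the third, at 13.1 ± 1.01 (SD, n = 5). It then stood above 53.4% of tested genes, compared with 14.5% in control. Erbb2 was at 4.73 ± 0.108 and Tgfa at 3.79 ± 0.319, with no overlap between neighbours down to Tgfa. Areg (0.307), Egfr (0.234), Ereg (0.157) and Erbb3 (0.124) again formed an overlapping lowest tier.

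The ligand sum differed in size and make-up between the groups, and the receptor sum differed by less. Hbegf was chosen for its rise in these same libraries, from 1.70 to 13.1 CPM per kilobase. The ligand sum, the ligand shares and the ligand to receptor ratio all contain that rise, so they are a description only. Over 10 EGF family ligands with values, the summed level was 4.40 ± 0.318 CPM per kilobase in control and 18.2 ± 1.37 in siRNA libraries (SD, n = 5). Hbegf made up 34.4% to 42.9% of this sum in control and 70.1% to 72.8% in siRNA libraries, and the Tgfa share went from 38.1% to 45.9% down to 20.2% to 21.5%, although Tgfa itself rose. Nrg4, a neuregulin that signals through ERBB4, made up 10.5% ± 1.99 in control and 3.08% ± 0.672 in siRNA libraries. Over the 3 receptors, the sum was 4.41 ± 0.312 CPM per kilobase in control and 5.08 ± 0.120 in siRNA libraries, and Erbb2 made up 94.8% ± 0.329 and 93.0% ± 0.642 of it. The sums overlapped through control replicate 2 (4.94), which stood above the lowest siRNA library (4.90), while the other 4 control libraries held 4.22 to 4.44. The shares of Erbb2 and Egfr did not overlap between the groups, whereas that of Erbb3 did. Erbb2 took 94.5% to 95.2% in control and 92.3% to 93.9% in siRNA libraries, and Egfr 2.43% to 3.30% and 3.73% to 6.28%. The ratio of summed ligand to summed receptor level was 1.00 ± 0.125 and 3.58 ± 0.237. These are transcript ratios, and they depend on the length used: per kilobase of coding sequence, Tgfa (17.5) and Hbegf (6.48) exceeded Erbb2 (5.56) already in control cells.

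**Figure D2:**
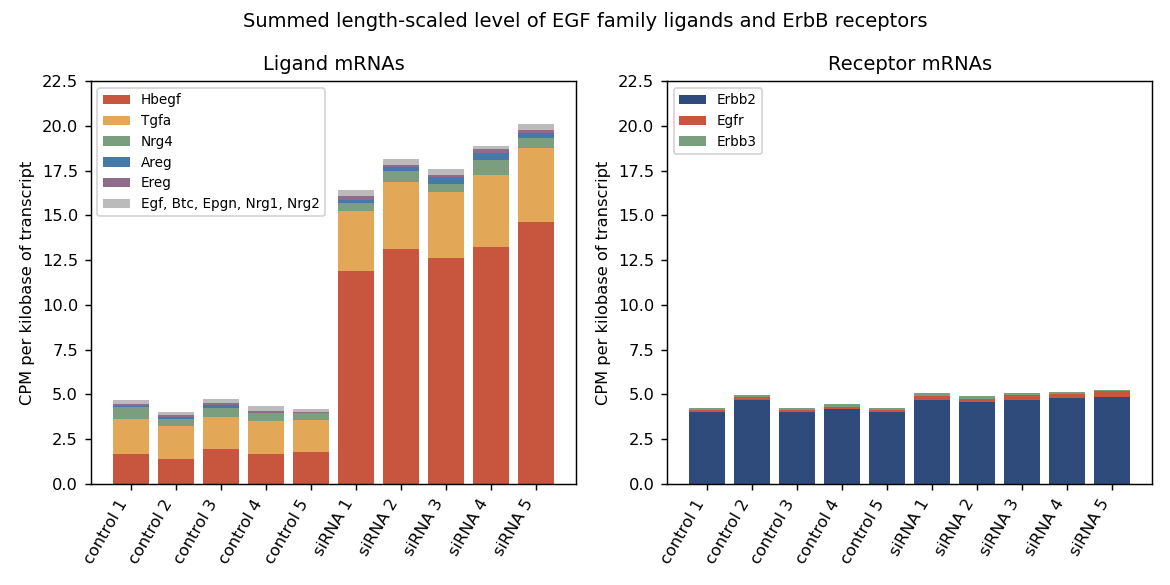
Stacked length-scaled levels (CPM per kilobase of transcript, same linear axis) of 10 EGF family ligand mRNAs on the left and 3 ErbB receptor mRNAs on the right, 1 bar per library. The Hbegf segment makes up most of each siRNA bar on the left, while the receptor bars stay between 4.22 and 5.24.

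The scarcity of some of these transcripts sets how precisely they were measured. In control libraries the coefficient of variation of Hbegf was 12.1%, next to a counting error of 11.7% for its mean of 72.6 reads, and in siRNA libraries it was 7.73% next to 4.2% for 567 reads. Egfr varied by 18.2% in control, below its counting error of 20.9%, and by 24.6% in siRNA libraries, above its counting error of 15.1%. For Errfi1 the variation was about 2-fold its counting error in both groups (4.43% against 2.14%, and 4.15% against 2.07%). Tgfa in control (3.08% against 8.17%) and Erbb2 in siRNA libraries (2.29% against 4.81%) varied less than counting error alone, which 5 libraries can give.

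**Figure D3:**
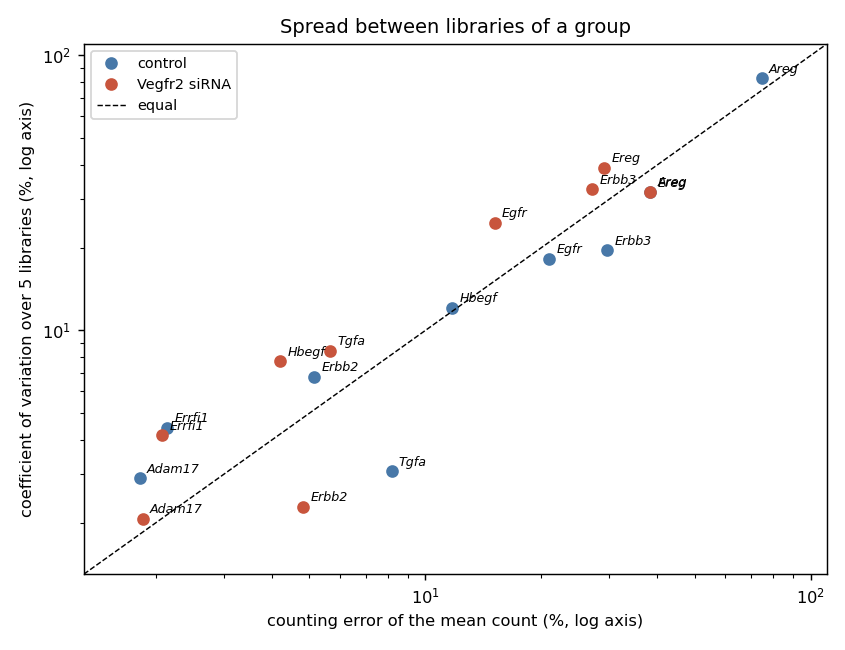
Coefficient of variation of CPM over 5 libraries against the counting error of the mean read count, both in percent on log axes, for the 9 genes in control (blue) and siRNA (red) libraries; the dashed line marks equality. Areg lies at the noisy end (82.4% in control) and Adam17 at the precise end (2.07% in siRNA libraries), and the points of Areg in siRNA and Ereg in control libraries coincide.

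Genes whose profile over the 10 libraries was most like that of Hbegf were found by the root mean square difference of log2 CPM, taken relative to the control mean, among 10324 genes with a mean of at least 5 CPM. They were Nefm, a neurofilament subunit gene (difference 0.191), the sodium/proton exchanger gene Slc9a2 (0.195), the potassium channel gene Kcnh1 (0.200), the AP-1 subunit gene Fosl1 (0.221) and the metallothionein gene Mt2 (0.270). All 5 were apart between the groups, with log2 fold changes from 2.60 for Mt2 to 3.11 for Fosl1. The measure is dominated by the step between groups, so this likeness follows from the choice and is not a result. Slc9a2 (2.91 CPM in control and 21.4 in siRNA libraries), Kcnh1 (2.38 and 15.7) and Fosl1 (2.57 and 22.3) reached the 5 CPM mean through their siRNA values. Part of the exon bases of Mt2 (73.5%), Fosl1 (57.2%) and Nefm (19.2%) are shared with another annotated gene, and the reads of Fosl1 were divided between genes in all 10 libraries.

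**Figure D4:**
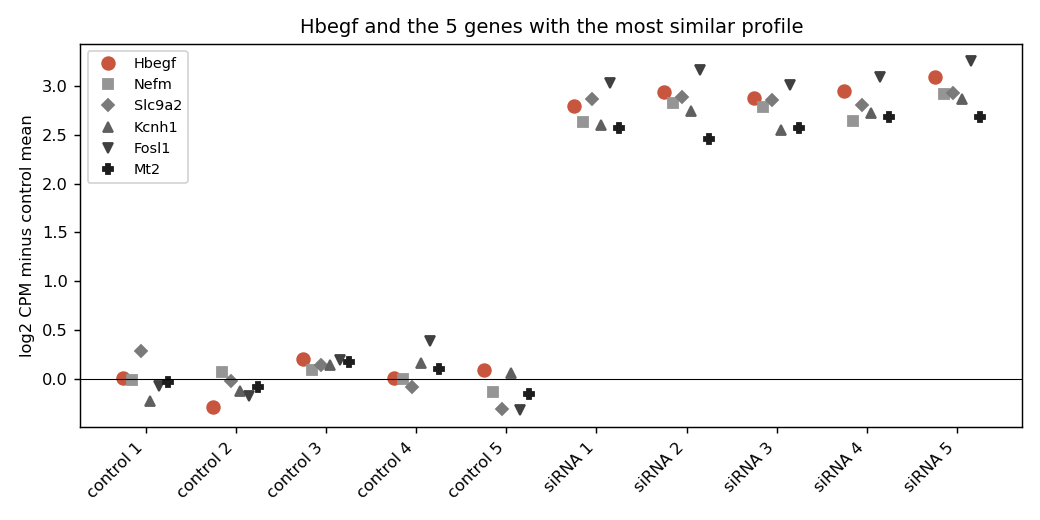
Log2 CPM minus the control mean (vertical axis) in each library for Hbegf (red circles) and its 5 nearest genes (grey symbols). Control values scatter around 0 and siRNA values lie between 2.46 (Mt2, replicate 2) and 3.25 (Fosl1, replicate 5).

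Promoter sequences were examined for 4 motifs on both strands in the window from 250 bases before to 50 after each start site (RefSeq, GRCm38.p6). An entry existed for 6 of the 9 genes: Areg, Tgfa, Egfr, Erbb2, Adam17 and Errfi1. The cAMP response element (CRE, TGACGTCA) was present in the windows of Areg and of the downstream of the 2 Errfi1 start sites, and in 1.79% of all 32851 promoter windows. The AP-1 site (TGANTCA, in 7.81% of windows), the EGR site (GCGNGGGCG, 5.55%) and the CArG box (1.63%) were in none of the 6 genes' windows. None of these motifs overlaps another in the windows shown. The sequences are given for the pair with the element, because in both it lies at a like distance from the start (−61 to −54 in Areg, −51 to −44 in Errfi1), and for Tgfa, the ligand gene that rose and holds none of the 4. Capitals mark the element, and all 3 read 5′ to 3′ on the plus strand.
Areg, chr5:91139349-91139648: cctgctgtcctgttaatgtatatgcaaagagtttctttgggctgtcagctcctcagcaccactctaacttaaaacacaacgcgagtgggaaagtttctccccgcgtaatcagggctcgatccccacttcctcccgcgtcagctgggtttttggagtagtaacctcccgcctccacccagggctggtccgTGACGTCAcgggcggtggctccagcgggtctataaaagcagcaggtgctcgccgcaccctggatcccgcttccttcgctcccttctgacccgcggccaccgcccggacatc
Errfi1, chr4:150854820-150855119: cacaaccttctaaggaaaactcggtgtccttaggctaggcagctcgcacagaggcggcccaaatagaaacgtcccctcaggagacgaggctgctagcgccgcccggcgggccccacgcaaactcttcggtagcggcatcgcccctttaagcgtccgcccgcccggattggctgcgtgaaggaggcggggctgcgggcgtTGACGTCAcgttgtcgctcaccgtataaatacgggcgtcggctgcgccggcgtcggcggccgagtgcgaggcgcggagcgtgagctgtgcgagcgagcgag
Tgfa, chr6:86194972-86195271: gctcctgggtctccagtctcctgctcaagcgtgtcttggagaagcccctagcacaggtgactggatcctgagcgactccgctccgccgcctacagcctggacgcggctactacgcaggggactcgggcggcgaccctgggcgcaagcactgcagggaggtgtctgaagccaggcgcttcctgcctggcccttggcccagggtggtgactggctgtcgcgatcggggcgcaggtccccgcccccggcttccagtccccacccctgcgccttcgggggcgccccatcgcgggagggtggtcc

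The Areg and Errfi1 windows both hold the searched string, and their transcripts stood at opposite ends of the level order in control cells. A link between the element and the level was not tested. The Tgfa window had a GC content of 70.7% (median of all windows 52.7%), the Errfi1 window shown 66.7% and the Areg window 59.3%. A match describes letters only, and binding was not measured. The word GTAAAGA, examined in an earlier search of these data, occurs in the longest annotated 3' untranslated region of 12.1% of 11719 tested genes with at least 50 bases there. None of the 9 genes carries it.

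Around the 9 genes, 82 further genes of the pathway were grouped by role in lists written with earlier results of these data known. Of the 79 analysed, 71 were tested, 36 rose, 22 fell and 13 did not pass, with a median log2 fold change of 0.09. These are 50.7% higher and 31.0% lower, beside 36.1% and 35.2% of all genes tested, and 81.7% called beside 71.3%. No list was tested against other genes, and no direction is read from a list's count.

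Among genes for shedding, the 3 metalloprotease genes that fell had higher control CPM than the 3 that rose. CPM is not scaled to length, and this order was picked out after the values were seen. Of 11 tested, 5 rose, 3 fell and 3 did not pass (median 0.08), a called share of 72.7% that is near the 71.3% of all genes. With upper-quartile scaling 5 of them were called lower. Adam10, the other broad sheddase of the cell surface, fell from 1074 ± 32.2 to 820 ± 18 CPM (SD, n = 5), and Adam9 from 392 ± 2.96 to 295 ± 9.73 CPM. Adam15, with 20.6% of its exon bases shared with another gene, fell by 0.30 on the log2 scale, and Adam12 rose by 0.13. Adam19 rose by 0.81 on that scale, between means of 86.5 ± 1.70 and 152 ± 6.74 CPM (SE 0.030, edgeR adjusted p = 2.86e-26), with 10.1% of its exon bases shared with another gene. Adam8, a metalloprotease gene of leukocytes and activated cells, rose from 1.96 ± 0.432 to 6.60 ± 0.855 CPM. Of the ADAM17 regulators, the iRhom genes Rhbdf1 (−0.08) and Rhbdf2 (0.10) did not pass, although Rhbdf1 was called lower in 4 of 17 alternatives and Rhbdf2 higher in 1. Frmd8, which stabilises iRhoms, rose by 0.15, and the inhibitor gene Timp3, with 21.3% of its exon bases shared, rose by 0.08.

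Proteins that bind the membrane-anchored HB-EGF precursor include surface proteoglycans, a tetraspanin and partners of its cytoplasmic part. Of the 9 genes listed and tested, 6 rose, 2 fell and 1 did not pass (median 0.40, against −0.0019 for all genes), so 88.9% were called beside 71.3% of all genes. The intracellular partners were Bag1, a co-chaperone gene that rose by 0.22 on the log2 scale, and Zbtb16, which encodes the transcriptional repressor PLZF and had a log2 fold change of −0.40. Both were named after their values were seen. The heparan sulfate proteoglycan genes Sdc2 and Sdc4 rose from 8.72 ± 0.670 to 21.7 ± 1.49 CPM and from 14.2 ± 0.478 to 23.7 ± 1.06 CPM (SD, n = 5), with edgeR adjusted p = 1.15e-21 and 4.12e-16. Sdc3, the syndecan gene with the highest CPM here, fell from 183 ± 6.0 to 139 ± 4.76 CPM. Cd44, whose heparan sulfate form can present HB-EGF, rose from 5.08 ± 0.500 to 10.8 ± 1.06 CPM. Cd9, a tetraspanin that associates with the HB-EGF precursor, had a log2 fold change of −0.03 (edgeR adjusted p = 0.234). Of its exon bases, 10.7% are shared with another gene.

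Relay genes from the receptor to ERK differed by small amounts in both directions. Of 23 tested, 10 rose, 10 fell and 3 did not pass (median −0.03), that is 43.5% in each direction beside 36.1% higher and 35.2% lower over all genes. Eps8, an EGF receptor substrate gene, rose from 102 ± 2.83 to 134 ± 1.65 CPM (SD, n = 5). The adaptor gene Shc1 fell from 232 ± 5.38 to 185 ± 3.80 CPM and the MEK1 gene Map2k1 from 79.9 ± 2.56 to 60.1 ± 1.45 CPM. The largest shift in either direction among the 23 was that of the docking protein gene Gab1, with a log2 fold change of −0.41.

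Attenuators of ErbB receptors included genes of either direction. Of 19 tested, 10 rose, 4 fell and 5 did not pass (median 0.09), a called share of 73.7% that is near the 71.3% of all genes. Rnf41, a ubiquitin ligase gene whose product degrades ERBB3, rose from 36.4 ± 2.76 to 62.2 ± 1.83 CPM (SD, n = 5; edgeR adjusted p = 1.12e-20). Cbl, the ubiquitin ligase gene for the EGF receptor, rose from 130 ± 1.06 to 167 ± 2.90 CPM, Sh3kbp1, a CBL partner in receptor uptake, by 0.50 and Socs5 by 0.44 on the log2 scale. Ubash3b (−0.62) and Lrig2 (−0.15) were among those that fell, both chosen for mention after their values were seen.

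The MAPK activity score, a published set of 10 transcripts that follow ERK output, was divided. Of 9 tested, 5 rose and 4 fell (median 0.15). These are 55.6% higher and 44.4% lower, beside 36.1% and 35.2% of all genes tested, of which 71.3% were called. Dusp4 rose from 16.8 ± 0.513 to 28.9 ± 0.716 CPM, Spry4 from 44.02 ± 0.865 to 71.2 ± 1.62 CPM and Etv4 from 96.7 ± 4.44 to 138 ± 2.32 CPM (SD, n = 5). Epha2 (0.32) and Dusp6 (0.15) also rose. Ccnd1, whose reads were divided between genes and whose exon bases are 23.4% shared, fell from 182 ± 4.41 to 143 ± 6.2 CPM. Etv5 (−0.33) and Spry2 (−0.20) fell as well. Phlda1 (−0.24) shares 33.0% of its exon bases with another gene and passed with overlapping groups. Its call was lost in 7 of 17 alternatives (adjusted p from 0.0527 to 0.156). These were DESeq2 and the fits without control replicate 1, 4 or 5 or siRNA replicate 3, 4 or 5. Thus the set held members of each direction, and ERK activity was not tested.

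**Figure D5:**
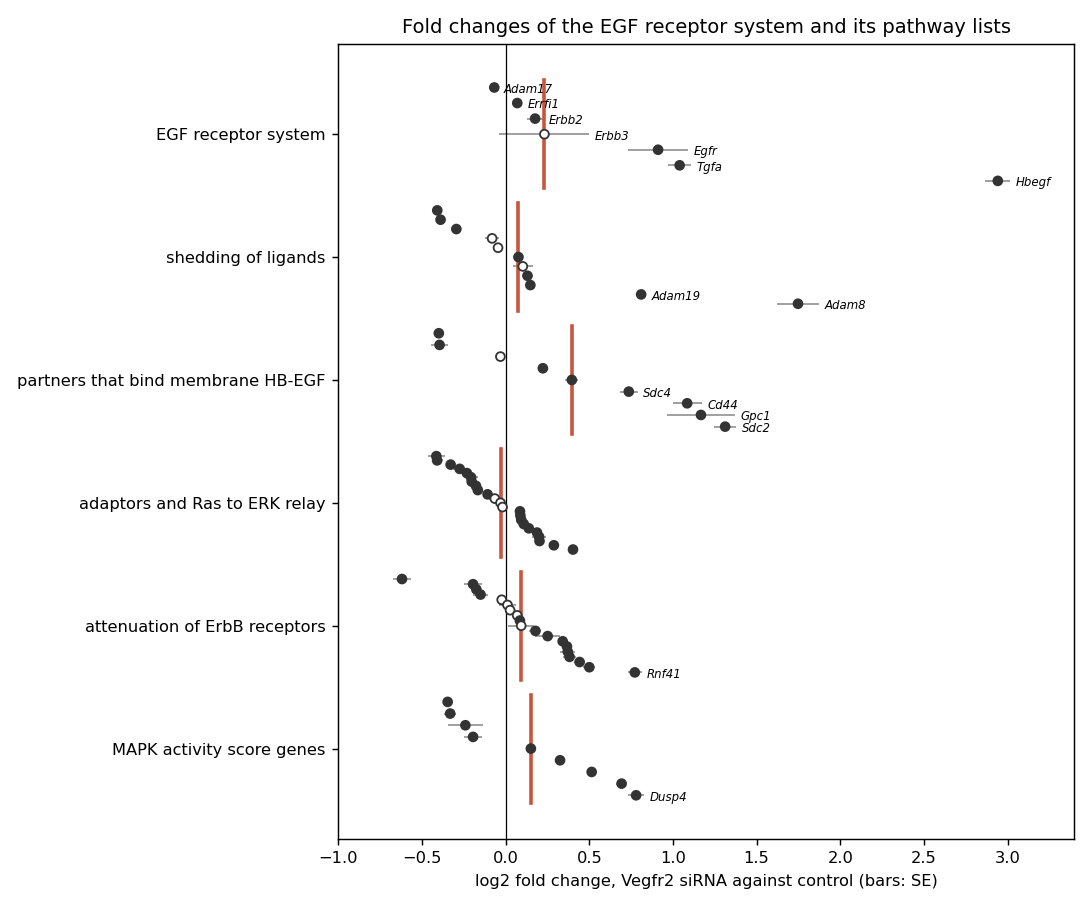
Log2 fold change of siRNA against control (horizontal axis, bars are SE) for the 7 tested genes of the EGF receptor system and for 5 pathway lists, 1 point per gene, filled where the edgeR adjusted p was under 0.05; red lines are medians. Hbegf at 2.94 lies to the right of every other point, and Areg and Ereg were not tested.

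Of the other EGF family ligands, Nrg4 was the only member of 6 analysed to pass the filter. Control cells held 0.891 ± 0.206 CPM of it and siRNA cells 1.09 ± 0.270 CPM (SD, n = 5; log2 fold change 0.28, edgeR adjusted p = 0.257, 95% interval −0.17 to 0.74). Egf had 33 reads in all control and 31 in all siRNA libraries, Nrg1 19 and 17, and Nrg2 7 and 8. Btc, with 13 and 36 reads, and Epgn, with 4 and 7, were under the filter as well. Without any filter, 1 of the other EGF family ligands was called higher. The members of the family with almost no reads were low in both groups. Hbegf, which was chosen for its rise, and Tgfa made up most of the difference in ligand sum. Nrg3 and Nrdc were not analysed here.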

How the data were processed

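Oligo(dT)-enriched RNA of 10 samples was sequenced, per the labels' protocols. Values are deposited as estimated counts per gene, which the authors left without normalization. The submitters' processing notes list HISAT2 2.2.1, Bowtie2 2.4.5, RSEM 1.3.1 and GRCm38.p6, with no roles; strand setting and annotation: not given in the sources used here. Rounded counts were fitted in edgeR 4.0.16 under R 4.3.3, by a robust quasi-likelihood F test on group alone. Scaling was TMM, genes were kept by filterByExpr (minimum count 10; 12161 kept, 4090 not), and p-values were Benjamini-Hochberg adjusted over all genes kept, threshold 0.05. Profiles and the permutation test used log2 CPM with a prior count of 1. Lengths, exon overlap and untranslated regions came from GENCODE M21.

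The 9 genes and all lists were chosen with earlier results of these data known. The rule named the 9, Kdr, Fosl1, up to 4 genes per list with the smallest adjusted p and the 5 nearest profiles; other list members were picked after their values were seen. In simulated counts (200 of 12161 genes changed), recovery was 38% for 1.1-fold changes, 80% for 1.25-fold, 90% for 1.5-fold and 100% for 2-fold, beside 8 false calls. In the real comparison 71.3% of genes were called, a far larger share, so these rates may not hold for it. Replicates were distinct libraries: the chi-square statistic per degree of freedom between them was 1.50 to 3.47. Alternatives were other scaling (RLE, upper quartile), DESeq2 1.42.0, limma-voom from limma 3.58.1, the filter removed or set to 5 CPM on average, replicate numbers as a block, each library left out, and other gene lengths.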

Additional observations from a re-analysis of the deposited data

Results flagged for a closer look

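In 72 groups of 5 libraries (36 named genes in control and in siRNA cells), 7 held a library whose gap to its neighbour took more than 0.71 of the group's range, where chance flags about 1 in 20 groups. Among the 9 genes, control replicate 2 stood apart for 3. It was highest for Egfr, at 1.668 CPM beside 1.104 to 1.234 in the other control libraries, highest for Erbb2, at 23.41 CPM beside 20.08 to 21.04, and lowest for Adam17, at 160.4 CPM beside 170.1 to 172.4. Without it, the log2 fold changes were 1.03 for Egfr, 0.22 for Erbb2 and −0.084 for Adam17, each farther from 0 than with it. No label sets this library apart, and the cause was not tested.

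In siRNA libraries, Eps8 was highest in replicate 2, at 137.1 CPM beside 133.1 to 134.1. Shc1 was lowest in replicate 5, at 178.1 CPM beside 184.9 to 187.0. Spry4 was highest in replicate 4, at 74.0 CPM beside 69.94 to 70.66. Ccnd1 was lowest in replicate 1, at 132.2 CPM beside 143.7 to 147.0.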

How the results depend on the processing

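Of 33 tested genes named by the rule other than Kdr, 31 kept direction and side of the threshold in each of up to 17 alternative fits, and Adam17 and Errfi1 kept direction only. With the filter at 5 CPM on average, 3 of the EGF receptor system genes were called higher (Egfr was not tested and Errfi1 missed the threshold), and without any filter 7 were, with Areg and Ereg added. With each library left out in turn, 4 to 6 genes were called higher and 0 to 1 lower. Calls of lower shedding genes went from 3 to 5 with upper-quartile factors. These factors shifted log2 fold changes over all tested genes by a median of −0.016, and lower calls over all genes went from 4277 to 4530. The cause was not tested. Calls over all genes in either direction ran from 7753 to 8956. Per kilobase of coding sequence Hbegf ranked 4 of 9 in control. With the union of annotated exons its ligand share was 32.45% in control and 64.82% in siRNA libraries. Same-numbered libraries did not deviate together (correlations −0.084 to 0.038), so numbers do not pair them. With the replicate number as a block, 8537 genes were called and Errfi1 no longer was (0.069). Depth limits Areg, Ereg and Erbb3.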
